A study of Arabidopsis thaliana with 12 samples.

Results

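Transcript signal of 7 genes named as regulators of flower and shoot development was compared between Arabidopsis thaliana plants under different light. Under light specific for photosystem II with DCMU, 2 had higher signal than under light specific for photosystem I and 3 had lower signal. The other 2 did not pass the test. Of all array features 48.5% passed, 26.4% higher and 22% lower, so these counts are read as a description. With the replicate pairs as a block 1 of the 7 was called higher and 3 lower. That fit called 874 of all 3439 features higher and 782 lower. The 7 were AGL26, AGL54 and AGL103, which carry names of MADS-box genes, and the regulators SPL (SPOROCYTELESS, also NOZZLE), LAS (LATERAL SUPPRESSOR), TCP15 and SAP (STERILE APETALA). AGL26 may encode a protein of another kind. The 7 genes were taken by locus from the array features that the platform's gene table pairs with exactly 1 gene, which gave 7 features, 1 per gene, among 692 such features and 3439 features in all. SPL rose 2.8-fold and AGL103 1.51-fold, though AGL103 did not pass in the fit with the block. LAS fell to 57.3% of its level under photosystem I light, AGL54 to 70.4% and AGL26 to 79.8%, while TCP15 and SAP stood at 89.4% and 101% with wide intervals.

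All samples were total RNA of wild-type plants of the ecotype C24, 6 from plants under PSII light with DCMU (named 15-PSII_DCMU) and 6 from plants under PSI light without DCMU (15-PSI). DCMU is a herbicide that blocks electron flow out of photosystem II. Light and DCMU changed together, so their effects cannot be told apart. The labels give no age, organ, time under the light or dose of DCMU. They name no plant or culture per sample, so each p-value reflects only how these samples vary, and that variation may be technical.

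Flowers arise from the shoot's meristems under the control of several families of regulators. MADS-box proteins bind DNA and take part in flower and reproductive development, TCP and GRAS proteins control growth and meristems, SPL acts in the cells that will form spores, and SAP is a subunit of a ubiquitin ligase. LAS, SPL and SAP are known for activity in small groups of cells such as leaf axils, anthers, ovules and young floral organs. In RNA of whole samples, fewer cells of a type and less RNA per cell cannot be told apart.

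Samples 1 and 2, 3 and 4, and 5 and 6 of a group acted as technical pairs and were averaged, so n = 3 replicates per group in every mean and in the reported test, while some of the 22 alternatives used other numbers. Intensities are on the deposited scale, whose unit is unknown, and the values of different features are not compared with each other. All 7 features lay above the floor of 0.0431 that was set under the intensities in all 12 samples. That floor is the 1st percentile of the positive intensities, so lying above it does not show that a transcript was detected. Sample medians over all features were 0.632 to 0.687 under PSII light with DCMU and 0.542 to 0.584 under PSI light. Markers fixed for green tissue numbered 18, of which 6 were measured, 2 rose (PRK and SBPASE), 0 fell and 4 did not pass. The log2 changes were 0.82 for PRK and 0.63 for SBPASE, both enzymes of carbon fixation, and 0.13 for PSAN, 0.19 for PSBW, 0.40 for PSBY and -0.34 for LHCB1.5, which encode photosystem or antenna proteins. Their median log2 change was 0.30, beside 0.04 over all features. Their summed intensity was 33.6 to 38.8 in the replicates under PSII light with DCMU and 32.5 to 36.4 in those under PSI light, with 0 values at 0. Most of that sum was PSBW (mean 19.6 under PSII light with DCMU, 17.1 under PSI light) and LHCB1.5 (10 and 12.7). Their changes had opposite signs, so the sum does not show equal amounts of green tissue. None of the 8 flower, 7 root, 4 pollen or 5 seed markers was measured by a feature with 1 gene, so the part of tissue makeup in the results below was not tested.

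**Figure D1:**
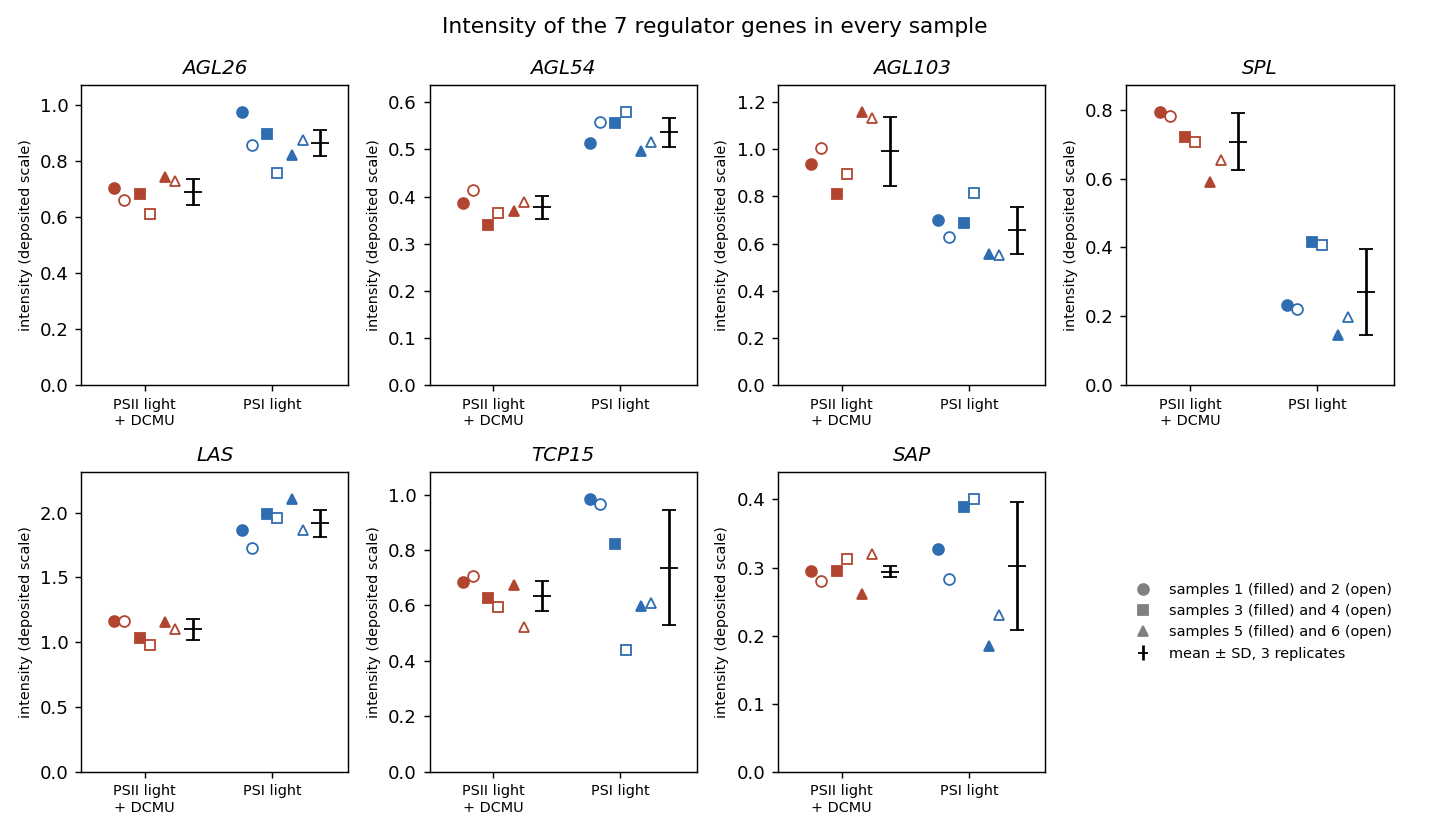
Intensity of each gene (vertical axes, deposited scale, each starting at 0) in the 6 samples under PSII light with DCMU, left, and the 6 under PSI light, right. Symbols mark the technical pairs, and black bars are the mean ± SD of 3 replicates. The samples of the groups separate for AGL26, AGL54, SPL and LAS, touch by 1 value for AGL103 and mix for TCP15 and SAP.

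Of the 7 genes, 5 passed an adjusted p of 0.05 (limma, Benjamini-Hochberg over all 3439 features), where 48.5% of all features passed. SPL and AGL103 were the 2 higher ones, against 26.4% of all features. AGL26, AGL54 and LAS were the 3 lower ones, against 22% of all features. Both shares varied with the feature number, as given below. When the fit blocked on pair SPL alone was higher, beside 874 of the 3439 features. The same 3 genes were lower in that fit, beside 782 features. Replicates of both groups were fully separate for the 5 genes that passed without the block, as for 60.7% of all features. All 3 differences between same-numbered replicates had 1 sign in these 5 genes too, as in 74.3% of all features. As shares of the 7 genes, 71.4% were called, 28.6% higher and 42.9% lower, and whether these differ from the background was not tested. With so few genes the counts are read as descriptions of single genes. The median absolute log2 change of the 7 was 0.51, and that of all features 0.50. Of all calls 54.5% were higher with the intensities as deposited, 40.9% after centring each array by its median and 41.5% after quantile normalization. The median log2 change over the whole array was 0.04 as deposited and -0.18 after median centring, so each direction below was also read under these scalings.

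The 3 genes with MADS-box names moved both ways. AGL103, a member of the type I branch of MADS-box genes, gave its lowest, median and highest intensities at 0.811, 0.972 and 1.16 in the 6 samples under PSII light with DCMU, against 0.553, 0.657 and 0.814 in the 6 under PSI light. PSI sample 4, at 0.814, was the 1 sample of its group to reach into the other, past PSII_DCMU sample 3 at 0.811. The replicate means were 0.99 ± 0.147 under PSII light with DCMU and 0.656 ± 0.099 under PSI light (SD, n = 3). The log2 change was 0.60 ± 0.163 (SE) with an adjusted p of 0.0343 (limma).

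The rise of AGL103 varied with the pair. It was 1.47-fold between replicates 1 (samples 1 and 2 of each group), 1.14-fold between replicates 2 (samples 3 and 4) and 2.07-fold between replicates 3 (samples 5 and 6). The adjusted p was 0.108 (limma) when the fit blocked on pair, and it also missed the threshold with arrays centred on their median (log2 change 0.38, adjusted p = 0.0638), though not after quantile normalization (0.53, adjusted p = 0.0373). When replicate 1 or 3 of either group was left out the adjusted p was 0.0723 to 0.0945, and it was 0.0726 with the median of features at the same array place taken out. The direction was the same under all 22 alternatives.

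AGL54, also of type I, had lower intensities in every sample under PSII light with DCMU. Its lowest, median and highest values were 0.339, 0.378 and 0.415 under PSII light with DCMU, against 0.496, 0.535 and 0.579 under PSI light. The highest value under PSII light with DCMU lay below the lowest under PSI light, and replicates differed by at most 1.14-fold in either group. The means were 0.377 ± 0.0241 under PSII light with DCMU and 0.536 ± 0.0306 under PSI light (SD, n = 3). AGL54 fell by 0.51 ± 0.072 on the log2 scale (SE, adjusted p = 0.0053, limma), and without dim features in the fit the SE was 0.131 (adjusted p = 0.0121). When the fit blocked on pair the adjusted p of AGL54 was 0.0281 (limma). The log2 change was -0.73 with arrays centred on their median and -0.92 after quantile normalization. It kept its call under 21 of 22 alternatives, with changes of -0.92 to -0.39 on the log2 scale. In the remaining one, which takes out the median of the 14 features at its array place, it stood at -0.027 ± 0.188 (adjusted p = 0.917). The median log2 change of those 14 features was -0.53.

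AGL26 carries a MADS-box name, but its place in the family was not checked here. The locus AT5G26880 may encode a protein of another kind, so its values are those of that locus and may not describe a flower regulator. In the 6 samples under PSII light with DCMU its lowest, median and highest intensities were 0.611, 0.693 and 0.745, and in those under PSI light 0.757, 0.867 and 0.976. The sample ranges did not overlap, although they came close. AGL26 averaged 0.689 ± 0.0459 under PSII light with DCMU and 0.864 ± 0.0467 under PSI light (SD, n = 3). It fell by 0.32 ± 0.072 on the log2 scale (SE, adjusted p = 0.0193, limma), the smallest change among the 5 genes that passed. Feature numbers fall into repeating runs, and changes across the array differed between 3 equal sections of a run. In the section of AGL54 and AGL103, 30.7% of features were called higher and 17.8% lower. In the section of AGL26 and LAS, 40.5% were called lower and 8.03% higher, and the median log2 change was -0.31. With that section's median taken out AGL26 stood at 0.13 ± 0.12 (adjusted p = 0.383). It stood at -0.13 with the median of its array place taken out (adjusted p = 0.535) and at -0.082 with section and brightness taken out (adjusted p = 0.567). The call also ended when dim features were left out of the fit (adjusted p = 0.0659), in even-numbered samples alone (0.0507) and without PSII_DCMU replicate 1 or 2 (0.0683 and 0.0583), so 7 of 22 alternatives ended it. It passed with arrays centred on their median (-0.54, adjusted p = 0.00544) and after quantile normalization (-0.44, adjusted p = 0.00531).

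AGL26 and AGL54 lie on chromosome 5 with 21 protein-coding genes between them in the TAIR10.1 annotation, and AGL103 lies on chromosome 3. Each of the first 2 is also listed for a further feature that it shares with other genes. The feature shared by AGL54, AGL53 and AGL93 averaged 0.854 ± 0.183 under PSII light with DCMU and 0.7 ± 0.0624 under PSI light (SD, n = 3), a log2 change of 0.26 ± 0.191 (SE, adjusted p = 0.307). The feature shared by AGL26, AGL89, AGL101 and AT5G27944 averaged 0.571 ± 0.0636 under PSII light with DCMU and 0.656 ± 0.0485 under PSI light (SD, n = 3), a log2 change of -0.21 ± 0.108 (adjusted p = 0.179). Neither passed, and which of their genes they measured cannot be said from the table. A feature named for 1 gene may likewise detect relatives, as probe sequences were not used here.

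SPL had the largest change of the 7 genes. In Arabidopsis its protein is needed for the first spore-forming cells of anthers and ovules, and it binds TOPLESS co-repressors and TCP factors. The values under PSII light with DCMU were 0.793, 0.782, 0.72, 0.707, 0.588 and 0.653 in samples 1 to 6. Under PSI light they were 0.233, 0.221, 0.416, 0.407, 0.145 and 0.199. Every sample under PSII light with DCMU lay above every sample under PSI light, and PSI samples 3 and 4 stood apart from the other PSI samples. The means were 0.707 ± 0.0834 under PSII light with DCMU and 0.27 ± 0.125 under PSI light (SD, n = 3).

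The log2 change of SPL was 1.49 ± 0.352 (SE, adjusted p = 0.0233, limma), with a 95% interval of 1.49-fold to 5.26-fold. Of all features, 90.8% had a smaller absolute change. The lowest SPL value under PSI light, 0.145, lay close to 0.139, the 5th percentile of the positive intensities. With that percentile added to every intensity before log2 the change of SPL was 1.09. Same-numbered replicates differed 3.47-fold, 1.73-fold and 3.65-fold, the smallest in the pair with the high PSI values. The rise was present under all 22 alternatives, at 0.78 to 1.84 on the log2 scale, and was 1.27 with arrays centred on their median and 1.09 after quantile normalization. It missed the threshold when PSI replicate 1 or any 1 replicate under PSII light with DCMU was left out (adjusted p = 0.0591 to 0.0783), and passed without PSI replicate 2 or 3. Features of its section of the runs had a median log2 change of 0.42, and 39.6% of them were called higher and 8.73% lower. With that section's median taken out SPL stood at 0.99 ± 0.261 (adjusted p = 0.015), and with brightness taken out as well at 0.78 ± 0.231 (adjusted p = 0.024).

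**Figure D2:**
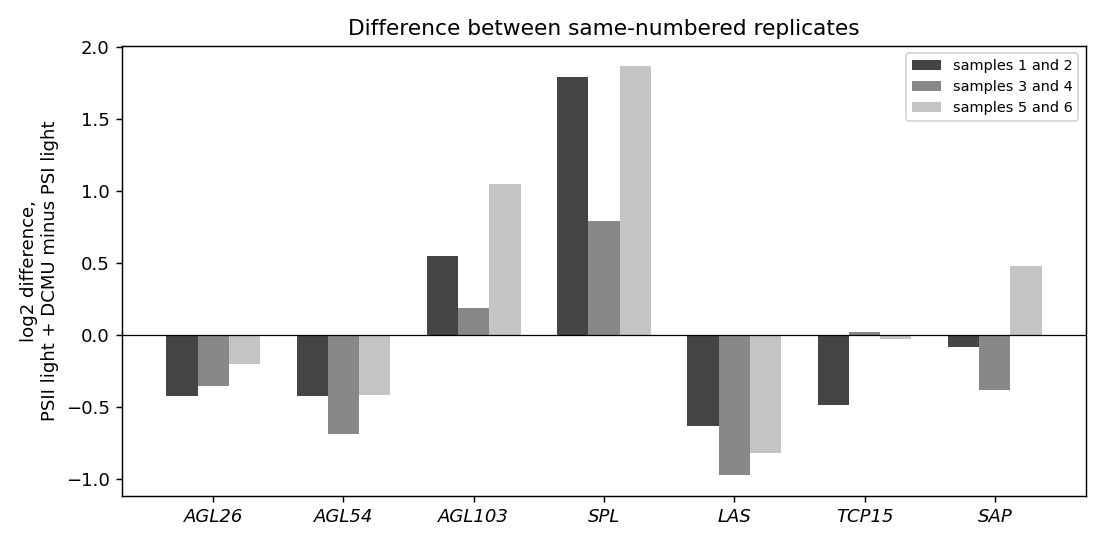
Log2 difference of each gene (vertical axis) between the replicates with the same number, PSII light with DCMU minus PSI light, as 1 bar per pair. All 3 bars of AGL26, AGL54 and LAS point down and all 3 of AGL103 and SPL point up, while those of TCP15 and SAP point both ways.

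TCP15, a class I TCP factor that controls cell proliferation in leaves, stems and floral organs, did not pass. It is of the protein family that SPL binds. Its lowest, median and highest intensities were 0.522, 0.649 and 0.708 under PSII light with DCMU, against 0.439, 0.716 and 0.984 under PSI light, so the range under PSII light with DCMU lay inside that under PSI light. PSI samples 1 and 2 were high, at 0.984 and 0.965, and PSI samples 5 and 6 lay at 0.598 and 0.609. PSI samples 3 and 4 disagreed by 1.87-fold, at 0.823 and 0.439, where the median ratio within a pair over 3208 features was 1.05 to 1.12. The means were 0.635 ± 0.0539 under PSII light with DCMU and 0.736 ± 0.207 under PSI light (SD, n = 3).

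The log2 change of TCP15 was -0.16 ± 0.221 (SE, adjusted p = 0.592, limma), and its 95% interval ran from 0.601-fold to 1.33-fold. A change of that size in either direction is therefore not told apart from none. It did not pass under any of the 22 alternatives, and was -0.38 with arrays centred on their median and -0.33 after quantile normalization. Same-numbered replicates stood at 0.715, 1.02 and 0.982 of the PSI value, so the fall lay in the first pair. Without PSI replicate 1 TCP15 stood at 0.07. Its value with the section's median taken out was -0.66 ± 0.255 (adjusted p = 0.0618), that median being a log2 change of 0.42. With brightness taken out as well TCP15 stood at -0.64 ± 0.232, just short of the threshold (adjusted p = 0.051, limma). With the median of its array place taken out it stood at -0.45 ± 0.204 (adjusted p = 0.0983).

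LAS had the smallest adjusted p of the 7 genes. It encodes a GRAS protein that acts in the axils of leaves and is needed to form side shoots in the vegetative phase. Under PSII light with DCMU its samples 1 to 6 read 1.16, 1.17, 1.03, 0.979, 1.16 and 1.1. Under PSI light they read 1.87, 1.73, 1.99, 1.96, 2.11 and 1.86. The groups were far apart relative to their spread, with the highest value under PSII light with DCMU below the lowest under PSI light and replicates within 1.16-fold of each other in both groups. LAS averaged 1.1 ± 0.0825 under PSII light with DCMU and 1.92 ± 0.104 under PSI light (SD, n = 3).

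LAS fell by 0.80 ± 0.078 on the log2 scale (SE, adjusted p = 0.00186, limma), and without dim features in the fit the SE was 0.133 (adjusted p = 0.00166). When the fit blocked on pair the adjusted p of LAS was 0.0165 (limma). Same-numbered replicates stood at 0.648, 0.51 and 0.569 of the PSI value. The change was -1.02 with arrays centred on their median and -0.62 after quantile normalization, both past the threshold, as was every fit without 1 replicate (adjusted p = 0.00544 to 0.011). LAS lay in the section of the runs where the median log2 change was -0.31 and in a bright class of features where it was -0.24. With the section's median taken out it stood at -0.35 ± 0.128 (adjusted p = 0.0527), and with brightness taken out as well at -0.25 ± 0.129 (adjusted p = 0.146), so 2 of 22 alternatives ended the call.

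SAP, an F-box protein that shapes flowers, ovules and organ size and marks PEAPOD repressors for degradation, gave nearly equal means in both groups. Its intensities in samples 1 to 6 were 0.295, 0.281, 0.295, 0.313, 0.261 and 0.32 under PSII light with DCMU. Under PSI light they were 0.327, 0.283, 0.389, 0.401, 0.185 and 0.23. The values under PSII light with DCMU were narrow and lay within those under PSI light. PSI samples 3 and 4 were highest and 5 and 6 lowest, the order also seen for SPL. Replicate means of AGL103 and AGL54 under PSI light had this order too. SAP averaged 0.294 ± 0.00869 under PSII light with DCMU and 0.302 ± 0.0936 under PSI light (SD, n = 3).

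The log2 change of SAP was 0.01 ± 0.249 (SE, adjusted p = 1, limma), with a 95% interval of 0.645-fold to 1.57-fold. Same-numbered replicates differed 0.947-fold, 0.77-fold and 1.4-fold, so the pairs disagreed in direction. This result depended on the scaling. SAP belonged to the second dimmest of 10 classes of brightness, whose median log2 change was 0.64, and to the section of the runs whose median was 0.42. After quantile normalization it stood at -0.62 ± 0.162 (adjusted p = 0.0288), with brightness taken out at -0.54 ± 0.157 (adjusted p = 0.0314), and with the median of its array place taken out at -1.13 ± 0.229 (adjusted p = 0.00365). With section and brightness taken out it stood at -0.83 ± 0.169 (adjusted p = 0.00437). With arrays centred on their median it did not pass (-0.21, adjusted p = 0.418).

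**Figure D3:**
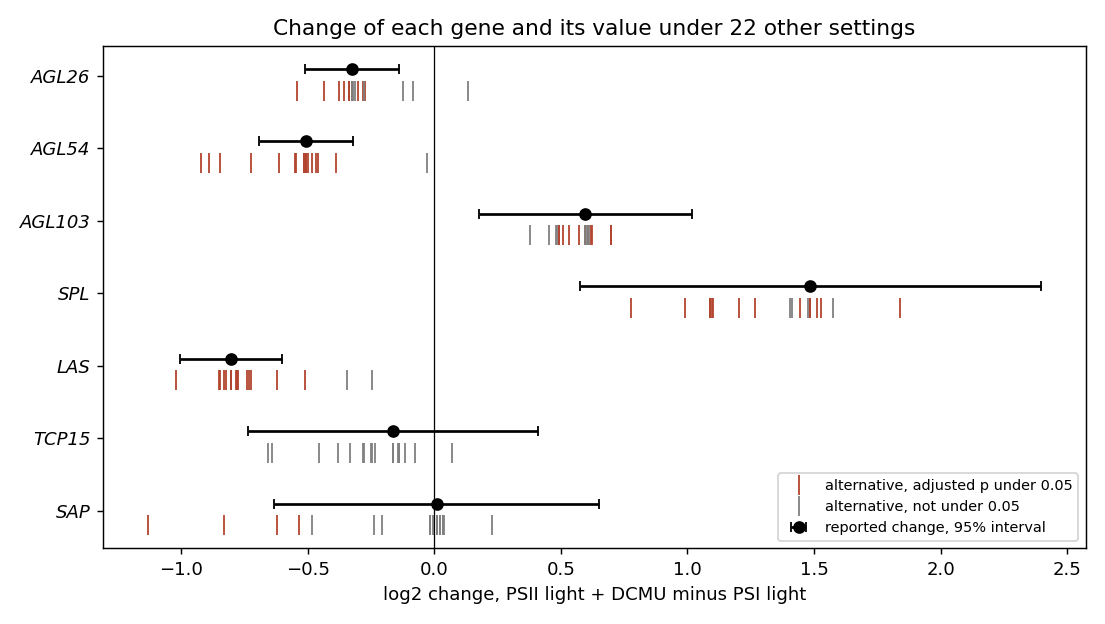
Log2 change of each gene (horizontal axis, PSII light with DCMU minus PSI light) with its 95% interval as a black dot and bar, and below it the value under each of 22 other settings, red where the adjusted p was under 0.05 and grey where it was not. The marks of SPL, AGL103, AGL54 and LAS stay on 1 side of 0, AGL26 crosses it once, and the red marks of SAP all lie below 0.

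Spread between replicates also differed by gene and group. The coefficient of variation over 3 replicates was 11.8% under PSII light with DCMU and 46.4% under PSI light for SPL, 2.95% and 31% for SAP, 8.49% and 28.1% for TCP15, and 14.8% and 15.1% for AGL103. For LAS, AGL54 and AGL26 it was 7.51%, 6.39% and 6.66% under PSII light with DCMU and 5.41%, 5.71% and 5.4% under PSI light. The PSI group had the higher coefficient in 4 of the 7 genes and in 75.7% of the 3208 features above the floor in all samples, for which the medians were 8.99% under PSII light with DCMU and 16.3% under PSI light. The PSI coefficients of SPL, SAP and TCP15 lay above that median of 16.3%, and those of AGL103, LAS, AGL54 and AGL26 below it. The cause of these differences in spread was not tested.

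**Figure D4:**
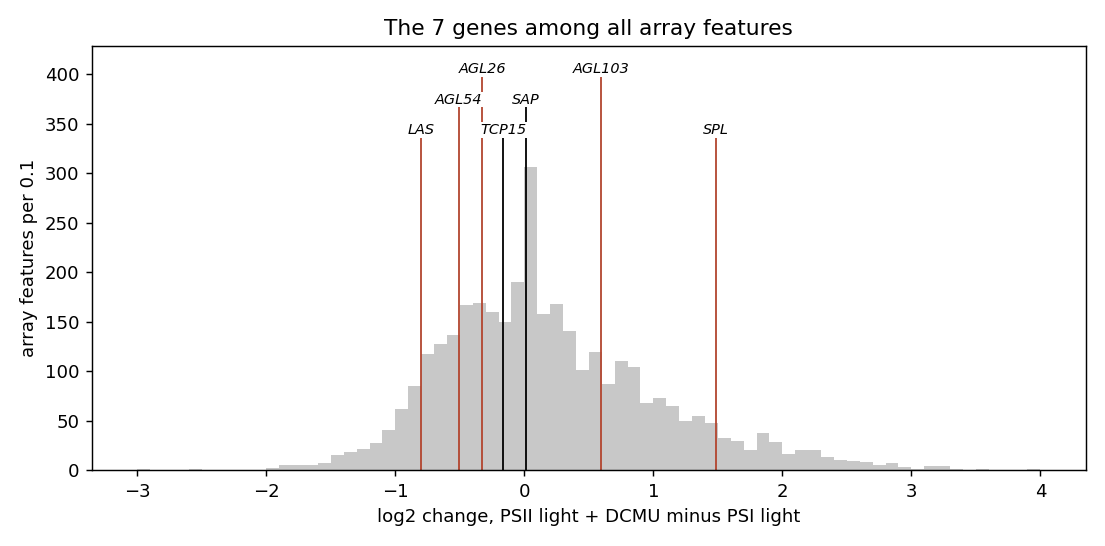
Number of array features (vertical axis) per 0.1 of log2 change, PSII light with DCMU minus PSI light (horizontal axis), with the 7 genes as lines, red where the adjusted p was under 0.05 and black where it was not. SPL lies in the right tail and LAS towards the left edge of the main body, and the other 5 lie within the bulk. The tall bar at 0 holds the 141 features under the floor in all samples, and 1 feature beyond the axis is counted in its end bar.

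Among all features, 91.7% had a lower log2 change than SPL and 72.8% a lower one than AGL103. At the other end 8.37% lay below LAS, 19.4% below AGL54 and 28.1% below AGL26, with TCP15 at 36% and SAP at 48.7%. Changes as large as those of AGL26, AGL54 and AGL103 were common on this array.

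For each gene the named features with the most similar pattern were sought by Pearson correlation of log2 intensity over 12 samples, among 653 features above the floor in at least 8 samples. These samples hold technical pairs and the same group difference, so high values describe the table and carry no test. AT5G05400 (r = 0.99) and AT5G13260 (r = 0.98) were most like SPL, and AT3G57630 and AT4G17440 (both r = 0.98) most like LAS. AGL54 was followed by AT3G47980 (r = 0.98) and AT3G51500 (r = 0.97), AGL103 by AT4G04370 and AT5G39980 (both r = 0.94) and AGL26 by PPDK (r = 0.95), the pyruvate orthophosphate dikinase gene, and AT1G11800 (r = 0.93). SAP was nearest to AT1G13970 (r = 0.91) and AT3G09490 (r = 0.88).

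TCP15 was nearest to AT4G03090 (r = 0.82), named NDX or Nodulin Homeobox, and to AT4G17070 (r = 0.81). AT4G03090 was also the 1 further gene that the lists of other transcription regulators found on the array. It averaged 0.43 ± 0.0466 under PSII light with DCMU and 0.421 ± 0.0581 under PSI light (SD, n = 3), a log2 change of 0.03 ± 0.139 (SE) that did not pass (adjusted p = 0.9, limma). No feature with 1 gene measured any of the 24 listed flower organ and floral meristem genes, the 24 genes of shoot meristems, branching and boundaries, the 15 genes of spore formation, anthers and ovules, or the 12 partners of SAP, and no feature with 1 gene measured a further MADS-box, TCP or GRAS gene. Binding partners and targets of the 7 genes were therefore not analysed here.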

How the data were processed

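The deposited table holds 1 intensity per array feature and sample on a linear scale, from 0 to 100. Array type, scanner, background correction and scaling are not given in the sources used here. Column means lay within 3.25% and medians within 11.9% of their averages, and the intensities were kept as deposited. Values under the 1st percentile of the positive ones (0.0431) were set to it (4.74% of values) before log2. Gene names come from a platform annotation that may be outdated: 692 had 1 gene, 870 several and 1877 none, and 690 were matched by gene identifier to the TAIR10.1 table.

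Deviations from group means correlated at 0.38 to 0.66 within pairs and at -0.51 to -0.18 between other samples of a group, so each pair was averaged, on the log2 scale for the fit and on the linear scale for the printed means ± SD. Same-numbered replicates of both groups correlated at 0.29 to 0.36, so the numbers also pair the groups, though the labels leave the meaning of a number unstated. The reported fit did not use this pairing, and a fit with a block on the pair is among the alternatives. The fit used limma 3.58.1 (lmFit, eBayes; R 4.3.3), two-sided, without block, adjusted over 3439 features, and was tested on simulated data. The simulated noise was independent between features and replicates, so that test says nothing on effects of pair, array position or brightness. Figures used Python 3.11.15 and matplotlib 3.10.9. An exact permutation test of 3 against 3 cannot go below p = 0.1, which it gave for the 5 genes that passed. The rule for named genes was all 7 genes above, every measured gene of lists with at most 10 measured, and the 2 most similar named features of each of the 7. The 7 genes, lists and tests were chosen with earlier results of these data known. The array position settings follow the feature number, since no layout was given.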

Additional observations from a re-analysis of the deposited data

How the results depend on the processing

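Settings were varied 22 times, of which 1 (array section and brightness together) was added after the data were seen. AGL54 and LAS were past the threshold in 21 and 20 of them, SPL in 18, AGL26 and AGL103 in 15 each, SAP in 4 and TCP15 in 0. With arrays centred on their median AGL103 stood at 0.38 (1 gene called higher, beside 783 of all 3439 features and 909 as reported). Quantile normalization put SAP at -0.62. Without dim features, which left 3287 in the fit, AGL26 kept -0.32 with a standard error of 0.131 in place of 0.072, AGL54 had 0.131 in place of 0.072 and LAS 0.133 in place of 0.078. The 141 features under the floor in all samples have no spread and enter limma's estimate of the common variance unless left out. In even-numbered samples AGL26 had -0.31 (adjusted p = 0.0507). In the fit with a replicate block on the pair, AGL103 kept 0.60 and missed the threshold, so 1 gene was called higher, beside 874 of all features. No other call of the 7 changed, and 782 of all features were called lower. The adjusted p with the block was 0.0387 for AGL26, 0.0281 for AGL54, 0.037 for SPL and 0.0165 for LAS (limma). The section of the run taken out put AGL26 at 0.13 and LAS at -0.35, leaving 1 gene called lower, beside 776 of all features and 758 as reported. The place in the run taken out put AGL26 at -0.13, AGL54 at -0.027, AGL103 at 0.45 and SAP at -1.13, leaving 1 gene called higher, beside 938 of all features. Brightness taken out put SAP at -0.54, and section and brightness together put AGL26 at -0.082, LAS at -0.25 and SAP at -0.83. Leaving out 1 replicate gave changes of -0.38 to -0.28 for AGL26, -0.55 to -0.46 for AGL54, 0.48 to 0.70 for AGL103, 1.203 to 1.84 for SPL, -0.85 to -0.74 for LAS, -0.28 to 0.07 for TCP15 and -0.24 to 0.23 for SAP, with 0 to 2 genes called higher and 2 or 3 lower. Of all 3439 features 610 to 976 were called higher and 528 to 725 lower when 1 replicate was left out. Fewer samples entered those fits. For them and for the other settings the cause of a changed call was not tested. The array position corrections rest on feature numbers and 14 or fewer features per place here. With 3 replicates per group and an unknown background, signal over background could not be given.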
